A study of Mus musculus with 2 samples.

Results

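The genes described here are 7 markers of lymphatic endothelium: Prox1, Lyve1, Ccl21a, Mmrn1, Reln, Nts and Pdpn. They were taken by symbol from the 16971 genes of a single-cell count table of the normal mouse aorta, and all 7 were found. The table holds 5451 cells in 10 populations named by the study's authors, among them 3 endothelial populations, EC 3 with 94 cells, EC 1 with 425 cells and EC 2 with 229 cells. The mice were C57/BL6 females of wild type, 12 weeks old and fed chow. Each of the 2 libraries held 1 aorta, cut from above the aortic valve down to the femoral branching and freed of perivascular fat. The aortas were digested with collagenases, hyaluronidase and DNase for 1 hour at 37 °C, and no sort for a cell type is described. Both libraries carry the same genotype and diet, so the values are compared between populations and between cells, and the libraries serve as replicates.

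Lymphatic vessels drain fluid and immune cells from tissue, and in large arteries they run in the outer wall. Their endothelium is specified by the homeobox factor Prox1, whose loss in mice prevents lymphatic development. Initial lymphatics take up cells and fluid and are known for Lyve1 and for the chemokine Ccl21, while collecting vessels carry valves whose cells hold high Prox1 and Foxc2. Podoplanin, the product of Pdpn, binds the platelet receptor Clec2 and helps to keep blood and lymph apart.

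Library 1 held 2260 cells and 11104066 UMIs (unique molecular identifiers, each standing for 1 captured RNA molecule), and library 2 held 3191 cells and 19484171 UMIs. EC 3 had 34 cells with a median of 2976 UMIs in library 1 and 60 cells with a median of 4670 UMIs in library 2. The sum of 10 pan-endothelial genes was 7864 and 7527 CPM (UMIs of a gene per 1000000 UMIs of the cells) in EC 3, against 7674 and 8055 CPM in EC 1 and 5375 and 6418 CPM in EC 2. Of the 12 cell barcodes that both libraries share, 1 belonged to an EC 3 cell, and none was in EC 3 in both libraries. No mesothelial marker had a UMI in EC 3 (5 genes), and the resident macrophage list (8 genes) reached 179 and 58.6 CPM in EC 3, against 15905 and 15413 CPM in Mono 1. In both libraries EC 3 lay above the other endothelium for this list, with 74.2 and 42.8 CPM in EC 1 and 82.9 and 42.0 CPM in EC 2. The smooth muscle list (4 genes) summed to 1428 and 660 CPM in EC 3, against 1886 and 1126 CPM in EC 1, 3344 and 952 CPM in EC 2 and 32394 and 29671 CPM in VSMC. The fibroblast list (6 genes) summed to 598 and 872 CPM in EC 3, against 917 and 866 CPM in EC 1, 1409 and 1012 CPM in EC 2 and 30075 and 31890 CPM in Fibro 2.

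Each of the 7 genes had its highest mean level in EC 3. For 6 of the 7, both EC 3 libraries lay above all 18 other sums of a library and a population, and the exception was Lyve1, which Mono 1 cells, the population with the resident macrophage genes, carried at a similar level. Among all 12512 genes with at least 50 UMIs, 3.15% had this pattern. The level is the count of a gene over all UMIs of the population, and it was taken as a description, since the genes are known markers and the authors formed the populations from the same cells.

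**Figure D1:**
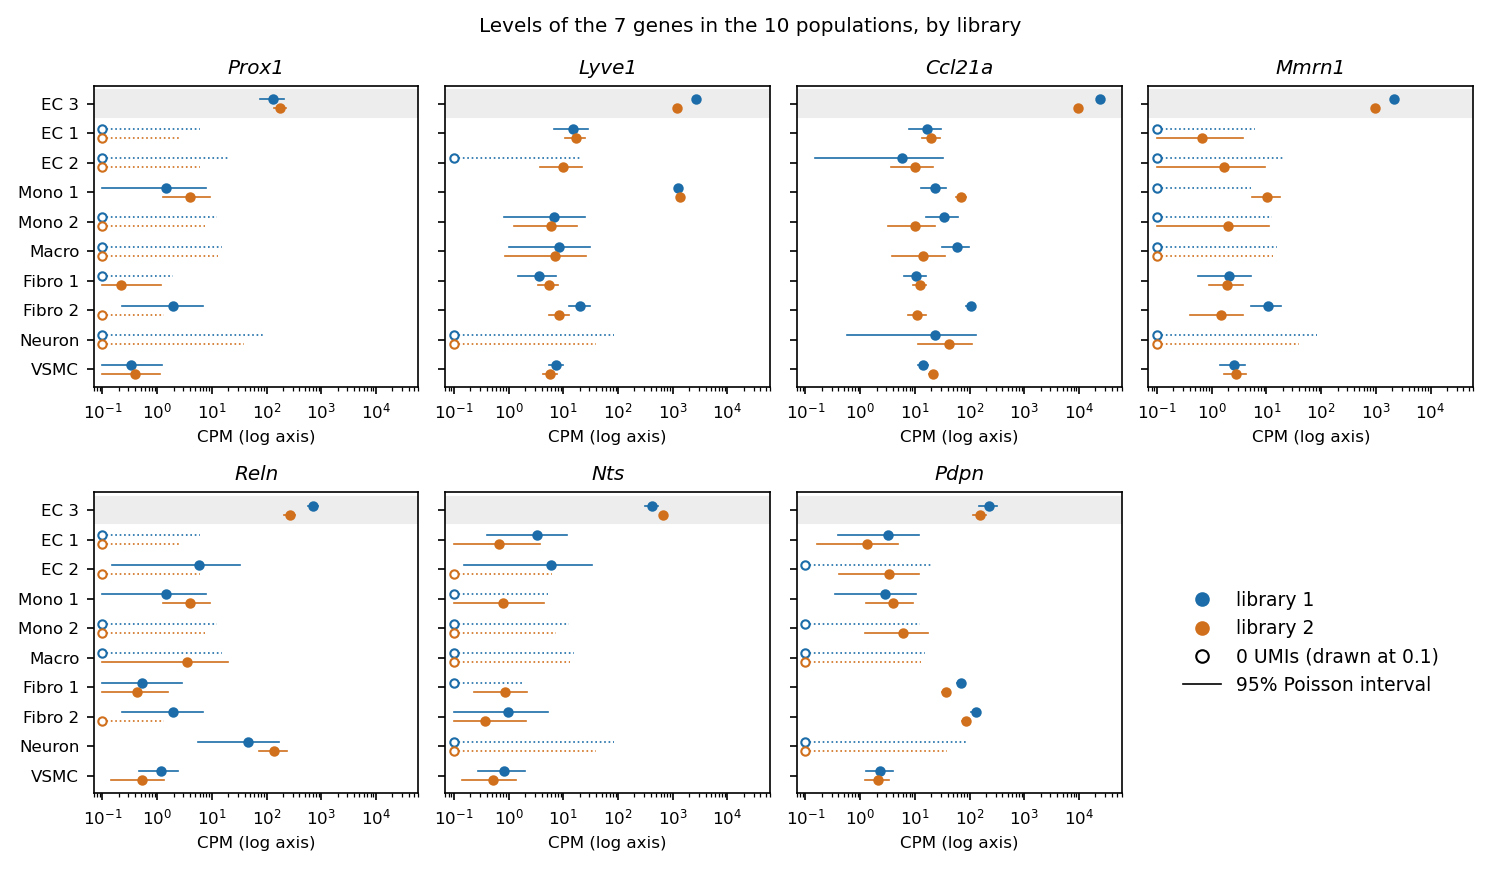
Level of each gene (CPM, log axis) in the 10 populations, with EC 3 on top. Points are the 2 libraries, lines are 95% Poisson intervals of the counts, and open points mark 0 UMIs. Both EC 3 points lie above all others for 6 genes, and Lyve1 is shared with Mono 1. Pdpn and Reln have a lower second level in the fibroblast populations and in Neuron. The Pdpn intervals of EC 3 and Fibro 2 overlap in library 1.

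Prox1, the regulator, had 132 CPM in library 1 and 179 CPM in library 2 of EC 3, a mean of 155 ± 33.1 CPM (SD, n = 2 libraries). These rest on 17 and 58 UMIs, and their 95% Poisson intervals of 76.9 to 211 CPM and 136 to 231 CPM overlap. No Prox1 UMI was found in EC 1 or EC 2, and the next level was that of Mono 1, at 1.43 and 4.00 CPM. EC 3 held 84.3% of the 89 Prox1 UMIs of the table.

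The chemokine Ccl21a reached 24716 CPM in library 1 and 9605 CPM in library 2 of EC 3, a mean of 17160.4 ± 10686 CPM (SD, n = 2 libraries). In the 51 EC 3 cells with a UMI the median was 105 UMIs and the highest cell had 422. The 43 other EC 3 cells had none, so the gene was either abundant or undetected in most cells. The next level was that of Fibro 2, at 106 and 11.1 CPM, where 1 cell gave 92 of the 140 UMIs. Mouse Ccl21 genes are near-identical copies, and counts may be split among them: the table also lists Gm21541, with 38 and 31 UMIs in EC 3, and Ccl21b.1, with 15 and 5 UMIs.

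Nts, which encodes the peptide neurotensin, had 411 CPM in library 1 and 669 CPM in library 2 of EC 3, a mean of 540.1 ± 182 CPM (SD, n = 2 libraries). EC 3 held 93.1% of its UMIs, the largest share among the 7 genes. Its UMIs were concentrated, since 10 of the 94 cells carried 61.1% of them and the highest cell had 42. No other population exceeded 5.92 CPM in either library.

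Reln, which encodes the secreted matrix glycoprotein reelin, had 714 CPM in library 1 and 265 CPM in library 2 of EC 3, a mean of 489.6 ± 318 CPM (SD, n = 2 libraries). The next level was that of Neuron, at 46.2 and 139 CPM, where 12 of 44 cells held a UMI. Both EC 3 libraries lay above both Neuron libraries, and both Neuron libraries lay above those of EC 2, the next in order. None of these 12 Neuron cells held a UMI of Prox1, Lyve1, Mmrn1, Nts or Pdpn.

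Mmrn1, which encodes the secreted glycoprotein multimerin, had 2189 CPM in library 1 and 980.2 CPM in library 2 of EC 3, a mean of 1585 ± 855 CPM (SD, n = 2 libraries). EC 3 held 88.2% of its UMIs. Outside EC 3 the level was at most 10.6 CPM, in library 1 of Fibro 2.

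Lyve1, a hyaluronan receptor of lymphatic endothelium that tissue macrophages also carry, had 2709 CPM in library 1 and 1174 CPM in library 2 of EC 3, against 1238 and 1334 CPM in Mono 1. The 2 populations overlapped, with library 2 of EC 3 below both Mono 1 libraries. Of 3476 Lyve1 UMIs, EC 3 held 730 and Mono 1 held 2533 (72.9%), and 364 of 443 Mono 1 cells (82.2%) had a UMI. Few of these 364 cells held another of the genes: 30 held Ccl21a, 5 Pdpn, 4 Mmrn1, 4 Reln, 3 Prox1 and 1 Nts. The third population, EC 1, was at 14.8 and 16.7 CPM.

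Pdpn had 225 CPM in library 1 and 154 CPM in library 2 of EC 3, a mean of 189.6 ± 50.2 CPM (SD, n = 2 libraries), against 129 and 84.3 CPM in Fibro 2 and 69.1 and 36.6 CPM in Fibro 1. EC 3 stood above Fibro 2 in both libraries, and Fibro 2 above Fibro 1. The fibroblast populations are larger, and they held most of the Pdpn UMIs, 45.8% in Fibro 2 and 38.4% in Fibro 1, against 10.0% in EC 3. EC 1 and EC 2 had 4 and 2 Pdpn UMIs.

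The libraries split the 7 genes in EC 3. Ccl21a, Lyve1, Mmrn1, Reln and Pdpn were higher in library 1, and Prox1 and Nts were higher in library 2. The 95% Poisson intervals of the libraries did not overlap for Ccl21a, Lyve1 or Mmrn1, for Nts (308 to 538 CPM in library 1 and 583 to 764 CPM in library 2) or for Reln (576 to 876 CPM in library 1 and 212 to 327 CPM in library 2). They overlapped for Prox1 and for Pdpn. Intervals and limits given here cover counting error only.

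The promoters of 6 of the 7 genes are in RefSeq's table for GRCm38.p6, and 4 are shown because Ccl21a, Mmrn1 and Reln were mostly found in the same EC 3 cells and Nts shared fewer cells with them. Each line gives the 250 bases before the start of the gene, 5′ to 3′ on the gene's own strand, at chr4:42773992-42774241 (minus) for Ccl21a, chr6:60944067-60944316 (plus) for Mmrn1, chr5:22344706-22344955 (minus) for Reln and chr10:102490419-102490668 (minus) for Nts. Capitals mark matches, on either strand, to motifs of factor families with known roles in endothelium.
Ccl21a: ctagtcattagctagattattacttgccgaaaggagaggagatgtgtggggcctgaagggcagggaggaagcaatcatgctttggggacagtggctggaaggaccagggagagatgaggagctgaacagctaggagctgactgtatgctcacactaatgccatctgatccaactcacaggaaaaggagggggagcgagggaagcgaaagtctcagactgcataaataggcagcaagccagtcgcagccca
Mmrn1: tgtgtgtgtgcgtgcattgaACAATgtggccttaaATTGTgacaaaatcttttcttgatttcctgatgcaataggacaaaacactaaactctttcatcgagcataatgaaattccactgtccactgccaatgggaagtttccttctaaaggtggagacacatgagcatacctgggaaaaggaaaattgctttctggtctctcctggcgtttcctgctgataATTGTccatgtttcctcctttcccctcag
Reln: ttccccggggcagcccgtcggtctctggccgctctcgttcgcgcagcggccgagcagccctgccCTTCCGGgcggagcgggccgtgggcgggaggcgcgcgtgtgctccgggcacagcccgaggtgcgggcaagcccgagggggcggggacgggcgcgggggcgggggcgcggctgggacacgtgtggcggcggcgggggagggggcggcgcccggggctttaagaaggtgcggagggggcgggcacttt
Nts: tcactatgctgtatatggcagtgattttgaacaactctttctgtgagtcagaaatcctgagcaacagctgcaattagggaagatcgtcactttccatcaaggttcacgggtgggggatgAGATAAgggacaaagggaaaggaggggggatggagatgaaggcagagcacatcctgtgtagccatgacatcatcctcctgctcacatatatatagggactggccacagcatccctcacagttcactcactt
Mmrn1 had 3 matches to the SOX motif ACAAT, 230, 215 and 29 bases before the start, and 27.7% of 32851 promoters in the table hold at least 1. Reln had 1 match to the ETS motif CCGGAAG, 186 bases before the start, which 6.91% of promoters hold. Nts had 1 match to the GATA motif AGATAA, 131 bases before the start, which 9.99% of promoters hold. The other 3 motifs had no match in these windows, namely the forkhead motif GTAAACA (in 3.17% of promoters), the nuclear receptor motif AGGTCA (in 14.02%) and the TATA box as TATAAA (in 12.4%). Ccl21a had no match to any of them, and no match overlapped another. The GC content was 80% in Reln, with 37 CG dinucleotides, 52.8% in Ccl21a, with 4, 48% in Nts, with 2, and 42.4% in Mmrn1, with 3. The medians over all promoters were 52.4% and 6 CG dinucleotides. No motif was found in more than 1 of the 4 windows shown. This does not hold for the windows left out, since Pdpn also had a match to the SOX motif, 168 bases before the start. Pdpn further matched the forkhead motif, at 153 bases, and the nuclear receptor motif, at 34 bases. A window of Prox1 matched TATAAA, 34 bases before the start.

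All 7 genes were higher in EC 3 than in the other endothelial populations, by large factors. The fit was edgeR's quasi-likelihood model on UMIs summed per library and population, with population and library as terms, and it tested 10488 genes, the 7 included. All 7 were higher in EC 3 than in EC 1, where 5.64% of all tested genes were called higher and 5.97% lower (Benjamini-Hochberg adjusted p under 0.05). All 7 were also higher in EC 3 than in EC 2, where 6.17% were called higher and 5.52% lower. EC 3 was formed from the same cells, so these calls describe it and are no independent test of it.

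Prox1 was at least 116-fold higher in EC 3 than in EC 1 and at least 42.2-fold higher than in EC 2, both bounds taken against 3 UMIs over the population. Reln was at least 275-fold higher in EC 3 than in EC 1, and 300.3-fold higher than in EC 2 with a 95% counting interval of 53.2 to 11926. Mmrn1, with 600 UMIs in EC 3 and 1 UMI in each other endothelial population, had ratios of 2783 to EC 1 (498 to 110116) and 1012 to EC 2 (181 to 40044). Nts had ratios of 417 to EC 1 (141 to 2037) and 455 to EC 2 (81.1 to 18056). Ccl21a had a log2 fold of 9.42 ± 0.58 (SE) against EC 1 and 10.54 ± 0.69 against EC 2. Lyve1 had a log2 fold of 6.55 ± 0.32 (SE) against EC 1 and 7.68 ± 0.42 against EC 2. Pdpn had a log2 fold of 6.27 ± 0.46 (SE) against EC 1 and a ratio of 66.6 to EC 2 (17.8 to 559.8).

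Other genes known from lymphatic endothelium were counted from 5 lists of 59 genes, of which 57 were in the table and 54 were tested. In EC 3 against EC 1, 28 of the 54 were higher, 7 lower and 19 did not pass, with a median log2 fold of 1.40, against -0.03 over all genes. In EC 3 against EC 2, 33 were higher, 2 lower and 19 did not pass, with a median of 2.07, against -0.01 over all genes. With genes that have no UMI in EC 2 placed at their bound, that median was 1.84. Of 10 pan-endothelial genes, 3 were higher and 3 lower against EC 1, and 3 higher and 2 lower against EC 2.

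Among 9 regulators, 4 were higher and 1 lower in EC 3 against EC 1, and 6 were higher and 0 lower against EC 2. Maf, a transcription factor of lymphatic endothelium, had 986 and 373 CPM in EC 3, against 8.24 and 4.68 CPM in EC 1, a log2 fold of 6.51 ± 0.41 (SE). Nr2f2, which encodes the venous and lymphatic factor COUP-TFII, had a log2 fold of 5.60 ± 0.27 against EC 1 and 2.73 ± 0.23 against EC 2. Foxc2, needed for lymphatic valves, was higher against EC 2, with 85.4 and 114 CPM in EC 3 and 0 and 3.36 CPM in EC 2. It did not pass against EC 1, where it had 89.0 and 63.5 CPM (log2 fold 0.38 ± 0.26). Gata2 was the lower one, with a log2 fold of -0.72 ± 0.24 against EC 1 (edgeR adjusted p = 0.0498).

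Among 13 genes of growth factor signalling, 6 were higher and 3 lower in EC 3 against EC 1, and 5 were higher and 0 lower against EC 2. Flt4, the receptor VEGFR-3, had 404 and 222 CPM in EC 3, against 13.2 and 12.0 CPM in EC 1 and 5.92 and 25.2 CPM in EC 2. Its log2 fold was 4.31 ± 0.35 (SE) against EC 1 and 3.68 ± 0.40 against EC 2. Kdr, which encodes VEGFR-2, had a log2 fold of 6.12 ± 0.40 against EC 1, and Adm, the peptide adrenomedullin, one of 5.84 ± 0.35. Against EC 2, Kdr did not pass and Adm had 3.52 ± 0.32. Calcrl, the receptor gene of adrenomedullin, rose by 2.79 ± 0.28 against EC 2, while Tek and Ramp2 were lower against EC 1, at -1.69 ± 0.20 and -0.80 ± 0.18.

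Among 13 valve and junction genes, 6 were higher and 3 lower in EC 3 against EC 1, and 8 were higher and 0 lower against EC 2. Cldn11, a claudin of lymphatic valves, had 53 UMIs in EC 3 and none in EC 1 or EC 2. The gap junction genes went both ways: Gja1 had a log2 fold of 3.62 ± 0.50 (SE) against EC 1, and Gja4, also an arterial gene, had -1.80 ± 0.24 against EC 1 and 1.57 ± 0.39 against EC 2. Fn1 likewise was lower against EC 1, at -1.83 ± 0.23, and higher against EC 2, at 0.99 ± 0.30.

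Among 9 genes of trafficking and scavenging, 4 were higher and 0 lower in EC 3 against EC 1, and 6 were higher and 1 lower against EC 2. Lbp, which encodes a lipopolysaccharide-binding protein, had a log2 fold of 7.73 ± 0.35 (SE) against EC 1 and 6.21 ± 0.37 against EC 2. Ackr2 and Ackr4, scavenging receptors for chemokines, had 25 and 32 UMIs in EC 3. The Ackr4 UMIs gave 7.76 and 95.6 CPM in the 2 libraries of EC 3, against 36.3 and 12.0 CPM in EC 1, where the gene did not pass (log2 fold 1.59 ± 0.64), and none in EC 2. Among 10 other lymphatic-enriched genes, 8 were higher and 0 lower against EC 1, and 8 were higher and 1 lower against EC 2, led by Pard6g, Thy1, Flrt2 and Tspan18 against EC 1 and by Pard6g, Fgl2, Fxyd6 and Cp against EC 2. The lower one was Pdgfb, a platelet-derived growth factor chain, with a log2 fold of -2.86 ± 0.55.

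**Figure D2:**
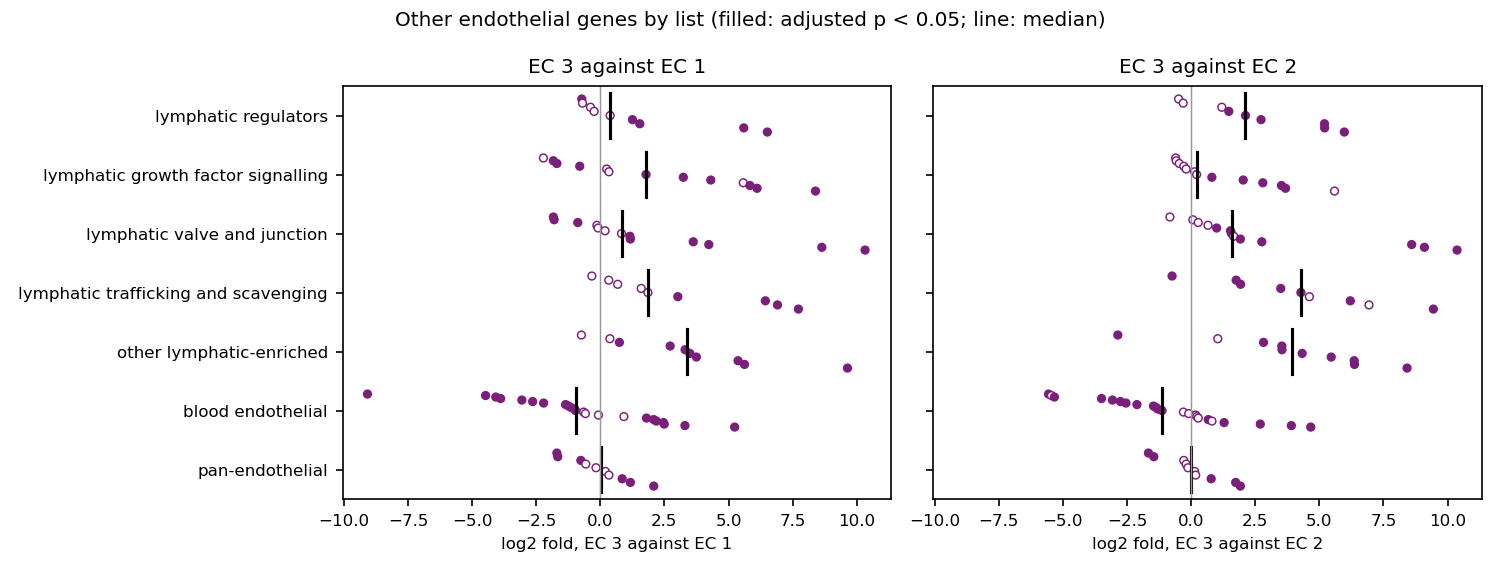
Log2 fold of the genes in each list, EC 3 against EC 1 on the left and EC 3 against EC 2 on the right. Filled points passed an adjusted p of 0.05, black lines are list medians, and genes without a UMI in 1 population carry fitted values that depend on the prior count. The lymphatic lists lie mostly to the right of 0, and the blood endothelial list spreads to both sides.

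Genes of blood endothelium went both ways, with more of them lower than higher. Of 23, 7 were higher and 12 lower in EC 3 against EC 1, and 5 were higher and 11 lower against EC 2. The median log2 fold of the list was -0.97 against EC 1 and -1.14 against EC 2. Sox17, an arterial factor, was lower against both, at -4.47 ± 0.39 (log2, SE) and -5.33 ± 0.36. So was Ly6c1, at -3.89 ± 0.29 and -5.56 ± 0.29, and Vcam1 was lower against EC 1 at -4.08 ± 0.34. Gpihbp1 was higher against EC 1, at 5.24 ± 0.48, and lower against EC 2, at -3.07 ± 0.32. Vwf, the von Willebrand factor, was higher against EC 2 at 4.66 ± 0.29, and Plvap, a protein of endothelial fenestrae, at 3.91 ± 0.32. Vwf had 659.8 and 1362 CPM in EC 3, against 1070 and 910.4 CPM in EC 1 and 47.4 and 40.3 CPM in EC 2. It did not pass against EC 1 (log2 fold -0.07 ± 0.16), where Plvap was higher in EC 3 at 2.46 ± 0.23.

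Of 14 receptors and partners of the 7 proteins, 11 were in the table, and 4 had their highest mean level in EC 3 (Gpr182, Hyal2, Has3 and Lrp8) and 7 in another population. This count was not made over all genes, so it does not set the partners apart from other genes. The means of Lrp8 and Has3 in EC 3 rest on 2 and 5 UMIs. Of the 7 tested, 2 were higher and 0 lower in EC 3 against each of EC 1 and EC 2. Ccr7, the receptor of Ccl21, had 126 and 138 CPM in Macro and no UMI in EC 3. Clec1b, the platelet receptor of podoplanin, was highest in Mono 2 at 10.2 and 20.2 CPM and had no UMI in EC 3. Vldlr, a reelin receptor, had 15.5 and 27.7 CPM in EC 3, against 126 and 138 CPM in VSMC and 91.2 and 105 CPM in Fibro 2. It was higher in EC 3 than in EC 1, at 3.30 and 4.68 CPM (log2 fold 2.30 ± 0.77, edgeR adjusted p = 0.0497). The other reelin receptor Lrp8 had 2 UMIs in EC 3. Sort1, which binds neurotensin, had 2 UMIs in EC 3 and was highest in Neuron at 46.2 and 64.1 CPM, from 8 UMIs, with 24.5 and 28.8 CPM in VSMC. Of the synthase genes for hyaluronan, the ligand of Lyve1, Has1 and Has2 had no UMI in EC 3 and were highest in Fibro 2, Has1 at 27.8 and 33.7 CPM and Has2 at 5.76 and 5.18 CPM. Has3 had 5 UMIs in EC 3, at 7.76 and 12.3 CPM, against 5.92 and 1.68 CPM in EC 2, the next in order. Cd44, another hyaluronan receptor, was highest in Mono 2 at 282 and 232 CPM and had 1 UMI in EC 3. Hyal2, a hyaluronidase, had 93.2 and 231 CPM in EC 3, against 142 and 143 CPM in EC 1, so library 1 of EC 3 lay below both EC 1 libraries. Gpr182, a scavenging receptor for chemokines, had the highest level of the partners in EC 3, at 194.1 and 194.2 CPM, against 16.5 and 14.7 CPM in EC 1 and 23.7 and 62.1 CPM in EC 2.

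Genes with the most similar pattern over the 20 sums of library and population were ranked by Pearson's r of log2(CPM + 10). Prox1 was most like Nts (r = 0.99), Mmrn1 (0.99) and the chloride channel regulator Clca3a1 (0.97), and Ccl21a most like Mmrn1, Prox1 and Clca3a1. Mmrn1 was also close to the cytokine gene Il7 (0.98), and Nts to Dtx1 (0.97). Genes with a second population had other neighbours: Lyve1 was nearest Chp2 (0.94), C5ar2 (0.90) and Maf (0.89), Reln nearest Cldn11 (0.93), Enho (0.93) and Flrt3 (0.92), and Pdpn nearest Slc38a4 (0.97), Nsg1 (0.94) and Il33 (0.93). These correlations are descriptions over sums that share libraries.

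Cell by cell, the 7 genes did not mark EC 3 evenly. Of the 94 cells, 57 (60.6%, 95% Clopper-Pearson interval 50.02% to 70.6%) held at least 3 of the genes with at least 1 UMI each, 24 of 34 in library 1 and 33 of 60 in library 2. A further 29 cells (30.9%) held at most 1, and 15 of these held none, 2 in library 1 and 13 in library 2. All 7 genes were found together in 10 cells. Outside EC 3, at least 3 of the genes were found in 9 of 5357 cells (0.168%), of which 5 were Mono 1, 2 VSMC, 1 Fibro 1 and 1 Fibro 2. At least 3 were found in 0 of 425 EC 1 cells and 0 of 229 EC 2 cells, which, taken as 3 cells of the total, allows shares of up to 0.706% and 1.31% of cells with such UMIs. The 95% Clopper-Pearson upper limits are 0.864% for EC 1 and 1.60% for EC 2. The Fibro 2 cell held 6 of the genes, 92 Ccl21a UMIs and only 2 Col1a1 UMIs, and it was not called a doublet.

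Single genes were found in 31.9% (Pdpn) to 63.8% (Lyve1) of EC 3 cells. In VSMC, which should lack them and whose cells are deeper (median 6025 UMIs, against 4139 in EC 3), the shares were 0.232% for Prox1, 0.324% for Nts, 0.509% for Reln, 1.16% for Pdpn, 1.25% for Mmrn1, 3.61% for Lyve1 and 7.97% for Ccl21a. EC 3 cells with Prox1 made 41.5% and those with Ccl21a 54.3%. When each cell was thinned to 1300 UMIs, the shares in EC 3 were 20.2% for Prox1, 18.1% for Pdpn, 36.2% for Reln, 37.2% for Nts, 48.9% for Ccl21a, 52.1% for Lyve1 and 53.2% for Mmrn1. Prox1 and Pdpn, which have the fewest UMIs, lost the most to thinning.

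**Figure D3:**
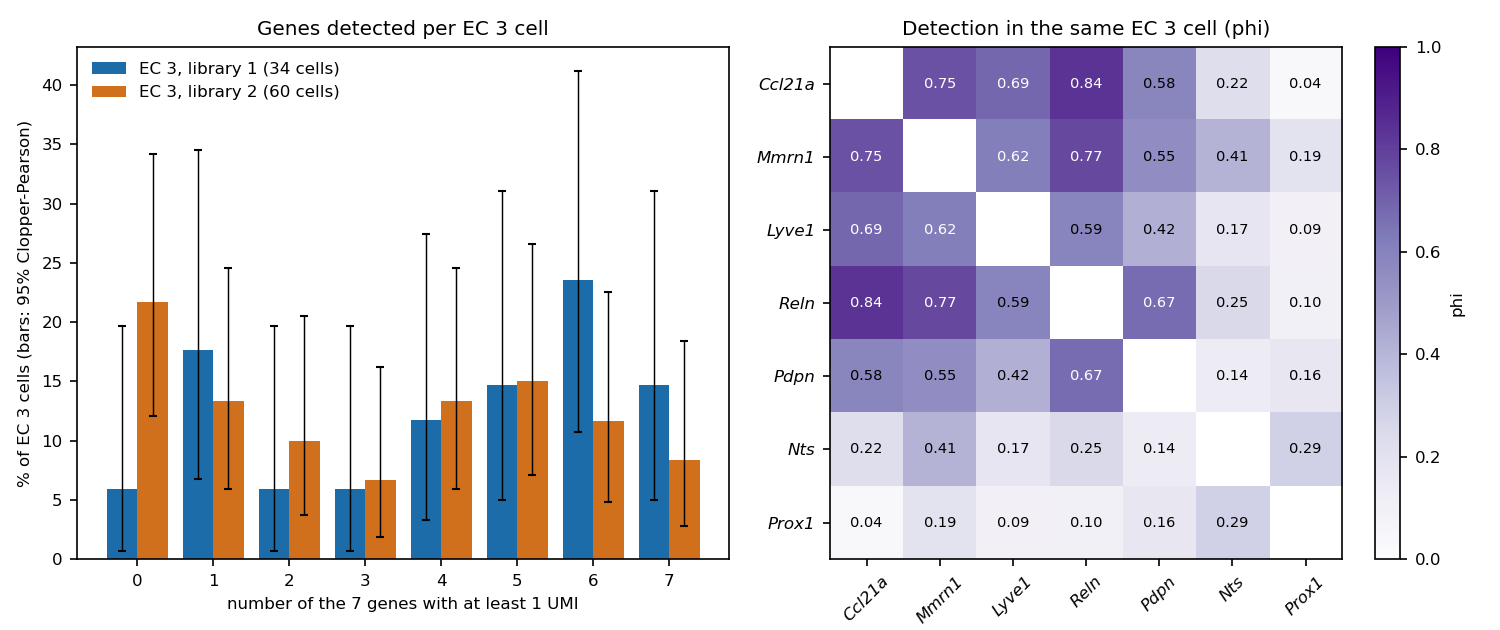
Left, number of the 7 genes detected per EC 3 cell, as % of cells in each library, with 95% Clopper-Pearson intervals; both low and high numbers are filled, from 0 to 7. Right, phi of each pair over 94 cells, which runs from 0.42 to 0.84 among Ccl21a, Mmrn1, Lyve1, Reln and Pdpn, from 0.14 to 0.41 for Nts with these 5, and from 0.04 to 0.19 for Prox1 with these 5.

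Ccl21a, Mmrn1, Lyve1 and Reln were mostly found in the same cells, and Pdpn, with fewer UMIs, in part of them. Ccl21a and Reln shared 44 cells, with 7 holding only Ccl21a and 1 only Reln, a phi coefficient of 0.84 (a correlation of presence, where 1 means the same cells). Each of the 45 cells with Reln also held Mmrn1 (phi 0.77), and each of the 30 cells with Pdpn held Mmrn1 (phi 0.55). Ccl21a and Mmrn1 shared 48 cells (phi 0.75), and Lyve1 and Ccl21a shared 48 (phi 0.69). The lowest of the 10 pairs of these 5 genes was Lyve1 with Pdpn, at 0.42. After thinning, the pairs of Ccl21a, Mmrn1, Lyve1 and Reln had phi of 0.57 to 0.85, and Pdpn had 0.28 with Lyve1, 0.33 with Mmrn1, 0.37 with Ccl21a and 0.45 with Reln.

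Prox1 was less tied to them over both libraries. It was found in 22 of the 51 cells with Ccl21a and in 17 of the 43 without it, a phi of 0.04. With Lyve1 the phi was 0.09, with Reln 0.10, with Pdpn 0.16, with Mmrn1 0.19 and with Nts 0.29. The libraries ordered these differently. In library 1, with 34 cells, Prox1 had its highest phi with Pdpn, 0.32, then with Reln, 0.29, Ccl21a, 0.17, and Nts, 0.15. In library 2, with 60 cells, it had its highest phi with Nts, 0.40, then with Mmrn1, 0.27, and 0.03 with Ccl21a. After thinning, the phi of Prox1 over both libraries was 0.25 with Pdpn, 0.22 with Nts and -0.02 with Ccl21a. Nts had a phi of 0.41 with Mmrn1, close to that of Lyve1 with Pdpn, 0.25 with Reln, 0.22 with Ccl21a, 0.17 with Lyve1 and 0.14 with Pdpn. After thinning, Nts and Mmrn1 had a phi of 0.28.

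**Figure D4:**
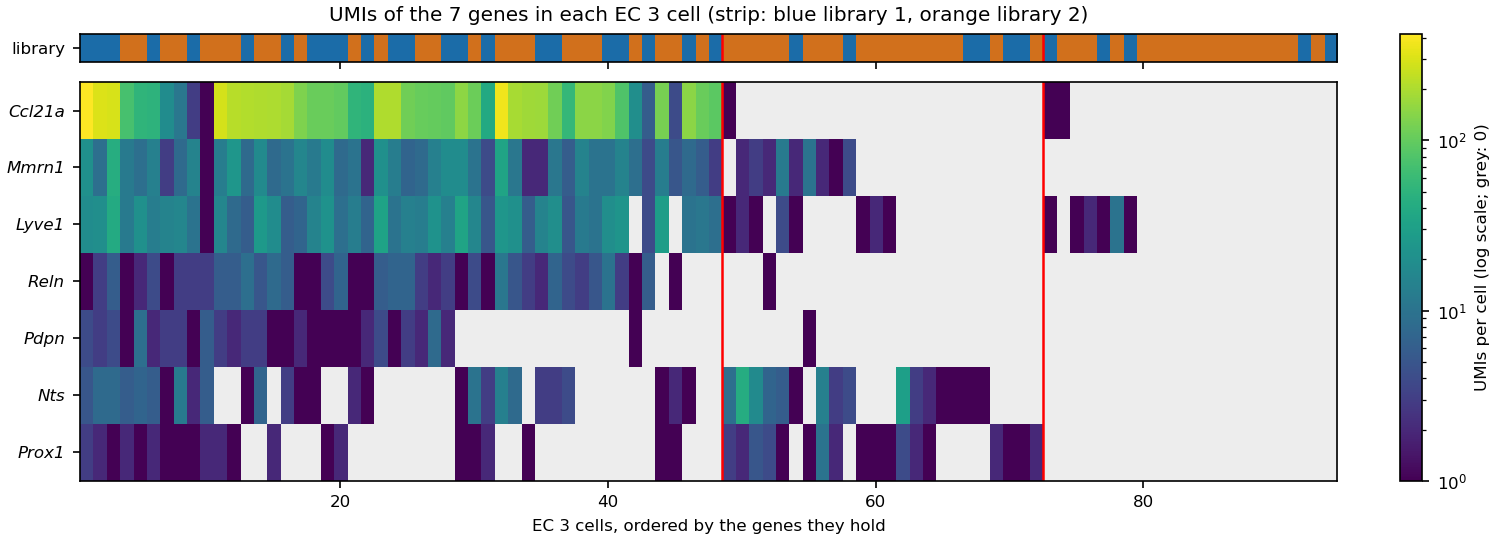
UMIs of the 7 genes (colour, log scale, grey for 0) in each of the 94 EC 3 cells, with the library of each cell in the strip. Red lines part the cells with at least 3 of the genes Ccl21a, Mmrn1, Lyve1, Reln and Pdpn (48, left), those with fewer but with Prox1 or Nts (24, middle) and the rest (22, right).

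EC 3 cells were then divided, after these values were seen, by how many of Ccl21a, Mmrn1, Lyve1, Reln and Pdpn they held. The first set, with at least 3 of these 5 genes, had 48 cells, 23 in library 1 and 25 in library 2. The second, with at most 2 of the 5 but with Prox1 or Nts, had 24 cells, 6 in library 1 and 18 in library 2. The third, with at most 2 of the 5 and neither Prox1 nor Nts, had 22 cells, 5 in library 1 and 17 in library 2. Few cells lay near the limit of 3 of the 5 genes. In the first set 5 cells held exactly 3, while 7 cells with Prox1 or Nts and 1 cell with neither held exactly 2. The division by Prox1 or Nts was less sharp, since 1 UMI was enough for it. Over all EC 3 cells with the gene, the median was 1 UMI for Prox1 and 3 UMIs for Nts. Many of the 24 cells were set apart from the 22 by only 1 UMI of Prox1 or Nts. Median depth over both libraries was 3716 UMIs in the first set, 6023 in the second and 5173 in the third. By library it was 2802, 3958.5 and 2842 UMIs in library 1, and 4129, 6559.5 and 6464 UMIs in library 2. The sets with fewer of the genes were thus the deeper ones, though in library 1 the third was close to the first. The pan-endothelial list summed to 6627 and 7179 CPM in the first set, 10175 and 8062 CPM in the second and 8900.2 and 7303 CPM in the third. The fibroblast list summed to 682 and 608 CPM in the first set, 296 and 1459 CPM in the second and 809 and 507 CPM in the third. The resident macrophage list summed to 257 and 103 CPM in the first set, from 31 UMIs. It had 59.2 and 44.2 CPM in the second set and 57.8 and 28.7 CPM in the third. The part of both lists in the values of the sets was not tested. The values that follow are sums over the cells of a set and have no test.

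Of 36 genes of the lymphatic lists with at least 30 UMIs in EC 3, 16 were highest in the first set, 12 in the second and 8 in the third. The same count was not made over all genes, so it does not set these lists apart from other genes. Flt4 was found in 41 of 48 cells of the first set, at 574 CPM, in 7 of 24 of the second, at 116 CPM, and in 1 of 22 of the third, at 8.21 CPM. Maf followed the same order, with 1160 CPM in the first set, 225 CPM in the second and 8.21 CPM in the third. So did Pard6g, a polarity gene, with 1062 CPM in the first set, 211 CPM in the second and no UMI in the third. Gja1 had 50 UMIs in the first set, at 271 CPM, against 5 UMIs in the second and none in the third. The chemokine scavenger Ackr2 was found in 17 cells of the first set and in none of the others. Other genes of the lymphatic lists differed less between the sets or were higher in the third. Lbp had 732 CPM in the first set, 476 CPM in the second and 493 CPM in the third, where 19 of 22 cells held it. Cp, which encodes ceruloplasmin, had 954 CPM in the first set, 783 CPM in the second and 517 CPM in the third. Calcrl had 244 CPM in the first set, 483 CPM in the second and 452 CPM in the third. Itga9, an integrin of lymphatic valves, had 135 CPM in the first set, 149.7 CPM in the second and 197 CPM in the third.

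The second set carried another group of genes. Adm had 810 CPM (95% Poisson interval 671 to 969) in the second set, 48.8 CPM in the first and 16.4 CPM in the third, and it was found in 3 cells of library 1 and 7 of library 2 in the second set. Ackr4 had 191 CPM in the second set, no UMI in the first and 32.8 CPM in the third, and 10 of its 11 cells in the second set were of library 2. Foxc2 had 218 CPM (149 to 307) in the second set, 81.3 CPM in the first (45.5 to 134) and 8.21 CPM in the third. Gja4 had 347 CPM in the second set, 103 CPM in the first and no UMI in the third, and Cldn11 had 238 CPM, 70.4 CPM and 41.1 CPM in the same order. By library, Cldn11 had 148 and 265 CPM in the second set and 173 and 19.1 CPM in the third. Angpt2, the angiopoietin that lymphatic remodelling needs, had 197 CPM in the second set, 65.0 CPM in the first and 8.21 CPM in the third. The share of cells with it was similar in the first 2, 6 of 24 in the second set and 10 of 48 in the first. Of its 29 UMIs in the second set, 18 came from 2 cells. Adm, Foxc2, Gja4, Cldn11 and Angpt2 were higher in the second set than in the first in both libraries.

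Of 18 genes of the blood endothelial list with at least 30 UMIs in EC 3, 14 were highest in the third set, 1 in the second and 3 in the first. Here too the share over all genes was not taken, so the count describes this list only. Vwf had 27.1 CPM in the first set, 1429 CPM in the second and 2562 CPM in the third. Plvap had 75.9 CPM in the first set, 1130 CPM in the second and 2956 CPM in the third. Ptprb, an endothelial phosphatase, had 97.5 CPM in the first set, 1171 CPM in the second and 1815 CPM in the third. Flt1, which encodes VEGFR-1, had 1 UMI in the 48 cells of the first set, 374 CPM in the second and 427 CPM in the third. Among those highest in the first set, Gpihbp1, which holds lipoprotein lipase on capillary endothelium, had 959 CPM there, 54.4 CPM in the second and 24.6 CPM in the third, and Bmx was nearly even, with 75.9 CPM, 74.9 CPM and 65.7 CPM in the same order. The Notch ligand gene Dll4, with fewer UMIs, had 97.5 CPM in the first set, 1 UMI in the second and none in the third. Cldn5, a tight junction gene of all endothelium, was low in the third set, with 271 CPM, against 3479 CPM in the first and 2988 CPM in the second. By library, the third set had 867 and 172 CPM of it. Within EC 3, Vwf was found in 5 of the 48 cells of the first set, 13 of 24 of the second and 21 of 22 of the third.

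The second set was uneven in itself, though each part of it rests on few cells. Its 10 cells with both Prox1 and Nts, all of library 2, had 360 CPM of Foxc2, 563 CPM of Gja4, 985 CPM of Adm and 594 CPM of Vwf. Its 8 cells with Prox1 alone had 86.1 CPM of Foxc2, 155 CPM of Gja4, 585 CPM of Adm and 2323 CPM of Vwf, close to the Vwf level of the third set. Its 6 cells with Nts alone, 4 of them in library 1, had 161 CPM of Foxc2, 241 CPM of Gja4, 885 CPM of Adm and 1489 CPM of Vwf. The doublet caller marked 1 cell of the first set and none of the others.

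**Figure D5:**
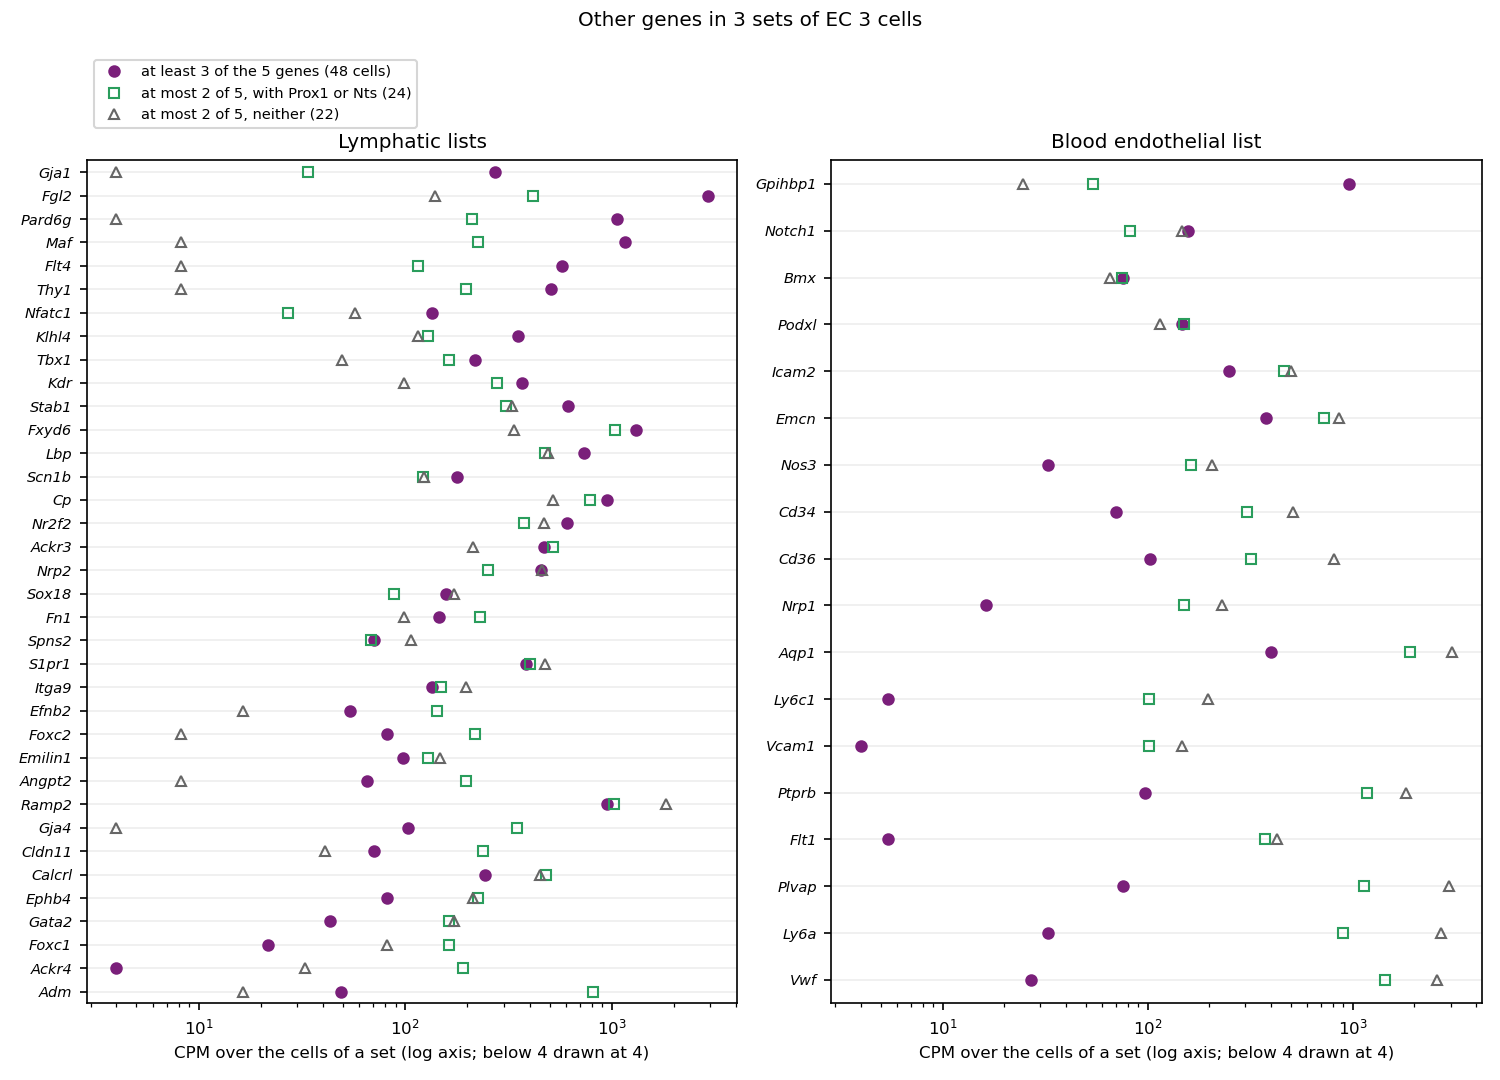
Levels (CPM over the cells of a set, log axis) of 36 genes of the lymphatic lists and 18 of the blood endothelial list, each with at least 30 UMIs in EC 3. Filled circles are the 48 cells with at least 3 of the 5 genes, squares the 24 cells with Prox1 or Nts, triangles the 22 cells with neither. Gja1, Fgl2, Pard6g, Maf and Flt4 are highest in the first, Adm, Ackr4, Foxc1 and Cldn11 in the second, and Vwf, Ly6a and Plvap in the third.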

How the data were processed

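Per the labels, the libraries are 10x Genomics v2. The deposited values are raw UMI counts for each gene in each cell. The submitters' processing notes name Cell Ranger 2.1 as the tool; genome build and gene models are not given in the sources used here. Population names are the authors' deposited names. Library was read from the number ending each barcode; which number is WT1 and which WT3 is not stated. Separate aortas per library follow from the labels, and other cells of the study were not analysed here.

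UMIs were summed per library and population (at least 10 cells) and fitted in edgeR 4.0.16 (R 4.3.3; filterByExpr, TMM, terms for population and library, residual degrees of freedom 9). The library term is a replicate block, as populations of 1 library share an aorta. Levels are CPM. Doublets were called with Scrublet in scanpy 1.11.5 and kept (52 in library 1, 26 in library 2). Cells were thinned to 1300 UMIs with a fixed seed, and none was shallower. On simulated data with known folds, 4-fold changes were recovered for 67% of genes against EC 1 and 58% against EC 2, and 2-fold changes for 25% and 14%.

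The genes, lists and tests were chosen with earlier results of these data known. From each list up to 4 called genes with the largest absolute fold were named. Gata2, Ramp2, Gja4, Fn1 and Pdgfb in the comparisons, and the genes given by sets of EC 3 cells, were chosen after their values were seen. Some genes that met these rules are not reported here. Alternatives were another scaling, DESeq2 1.42.0, all genes unfiltered, a fit without the library term, other cells and other detection limits.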

Additional observations from a re-analysis of the deposited data

How the results depend on the processing

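All 7 genes were called higher in EC 3 against EC 1 and against EC 2 under each alternative fit except DESeq2, which called 6 of the 7 in both comparisons and missed Prox1, the gene with no UMI in EC 1 and EC 2. Genes called over the whole table numbered 1218 against EC 1 and 1226 against EC 2, and with cells thinned to 1300 UMIs 696 and 683, with fewer genes tested (6876). Thinning also gave 21 lymphatic-list genes higher against EC 2 in place of 33. Lymphatic-list genes lower against EC 1 numbered 7, and 4 with RLE size factors, with DESeq2 and with thinning, and 3 with no replicate block. Those lower against EC 2 numbered 2, and 4 with no filter on low counts. Without the replicate block, which holds the pairing of populations from 1 aorta, 959 genes were called against EC 1 and 1034 against EC 2. The share of EC 3 cells with at least 3 genes was 55.0% without library 1 and 70.6% without library 2, and 53.2% to 62.2% under other settings. The share with at most 1 gene was 39.4% after thinning, and 35.0% and 23.5% without library 1 and library 2. The phi of Prox1 and Ccl21a was 0.04, and -0.0795 with at least 2 UMIs, -0.0158 after thinning, 0.0269 without library 1 and 0.170 without library 2. Leaving out a library left 6 or 7 of the genes above all other sums in EC 3, and left no residual degrees of freedom for a test. The cause of these changes was not tested. EC 3 has 34 and 60 cells, so levels of a set rest on few cells, and Prox1 on 75 UMIs.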
